A study of Arabidopsis thaliana with 12 samples.

Results

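The transcripts described here are those that differed between imbibed seeds of the pil5 mutant and of the Col-0 wild type when both had received a red light pulse. Arrays were chosen by their titles: the 3 pil5 red arrays were set against the 3 Col-0 red arrays, 6 of the 12 arrays in the series, and were paired by biological replicate number. All seeds of Arabidopsis thaliana received far-red light (3.2 umol per square metre and second) for 5 min on aqueous medium. The red groups were then given red light (13 umol per square metre and second) for 5 min, and the dark groups were not. Every group was next kept in darkness for 12 h before total RNA was taken from whole imbibed seeds. The mutant is a single T-DNA line, Salk_072677, and wild type means Col-0. Neither the age of the seeds nor any treatment before the far-red pulse is given in the labels. The word dark below stands for seeds whose last light was far-red.

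PIL5, also called PIF1, is a bHLH transcription factor that binds the active form of phytochrome and represses germination of imbibed seeds in darkness. Red light turns phytochrome into its active form, and PIL5 is then degraded. PIL5 is known to lower gibberellin (GA) levels and responsiveness and to favour abscisic acid (ABA) signalling, in part through the DELLA repressors of GA response and the zinc-finger protein SOMNUS. Germination itself needs loosening of the cell walls of embryo and endosperm, new cytoskeleton, and the end of the late embryogenesis programme.

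Values are log2 signals as deposited, for 22746 probe sets, each a set of oligonucleotides on the array. A difference is pil5 red minus Col-0 red on the log2 scale, so that 1 unit is a 2-fold change, with the standard error (SE) of a limma fit that holds replicate number as a block (n = 3 per group). A probe set was called at a Benjamini-Hochberg adjusted p below 0.05 over all 22746 probe sets. No probe set is assigned to PIL5 (AT2G20180) in the supplied annotation, and the mutation itself is therefore not checked by these data. The supplied annotation names 1 gene for 13513 of the 22746 probe sets, several for 503 and none for 8730, and a gene symbol for 1580. The genome build behind the array was not given in the sources used here, and no positions are given. Probe sets of close family members may share signal between genes, and this was not tested. Whole seeds were measured, so fewer cells of a tissue and less RNA per cell cannot be told apart.

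The third pil5 red array departed most from the others, and other arrays of number 3 departed in part. Its bioC spike-in read 7.45, against 8.77 to 9.21 elsewhere. The median of its 22 mitochondrial probe sets was 9.87, against 6.69 to 8.08. The median of its 69 plastid probe sets was 7.08, against 7.33 to 9.29. The third Col-0 dark, Col-0 red and pil5 dark arrays were also low, at 7.33, 7.51 and 7.36. The low plastid median was thus shared by the arrays of number 3. Weights that limma gives to arrays, lower where the spread is larger, were 0.14 for the third pil5 red array. They were 0.377, 1.11 and 0.356 for the third Col-0 dark, Col-0 red and pil5 dark arrays, and 1.28 to 1.91 for numbers 1 and 2. Within groups, numbers 1 and 2 correlated at r = 0.997 over the probe sets, and number 3 with them at 0.968 to 0.99. The 25S rRNA control read 7.24, 9.48 and 11.21 on the pil5 red arrays and 6.75, 7.62 and 5.71 on the Col-0 red arrays. Its highest value in the series was 12.90, on the second Col-0 dark array. For 14 control and marker summaries, an exact two-sided permutation test between the red groups gave p from 0.1 to 1 (0.7 to 1 after adjustment), and 3 against 3 arrays cannot give a p below 0.1. Only 3 of 16 listed seed storage and oil body genes were measured. Their median was 8.75 to 10.19 on all 12 arrays, above the array medians of 6.08 to 6.28. The median of 3 leaf photosynthesis markers, 6.43 to 7.79, was above the array medians too, so such a level is not particular to seed genes. The part of the third array's differences in the results was not tested beyond the values given without it.

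After red, 1880 of 22746 probe sets were called, 811 higher and 1069 lower in pil5, which is 8.27% of the probe sets tested (3.57% higher and 4.7% lower). The shares of 3.57% and 4.7% are those to set beside each list count after red given below. The differences were mostly modest: the median size among called probe sets was 0.62, and 360 of them were at least 2-fold (136 higher, 224 lower). In 1879 of the 1880 the sign was the same in all 3 pairs, which the blocked fit favours, so it is no separate support. The pil5 red and Col-0 red values did not overlap in 1162. Over all probe sets, 3799 (16.7%) did not overlap. The 15 highest and 15 lowest genes described below were picked among those without overlap, so non-overlap adds no support for them. With no replicate block the same 12-array limma fit called 44 probe sets (0.193%), 9 higher and 35 lower, and all 44 were among the 1880. A fit of the 6 red arrays alone called 316 with the block. Without the block it called 0, with 2255 at an unadjusted p below 0.05. Leaving out the third pil5 red array gave 2183 calls, 1035 higher (4.55%) and 1148 lower (5.05%), and 1485 of the 1880, or 79.0%, were called again in the same direction. The count fell to 661, 559 and 881 without the first, second and the third Col-0 red array, and to 1108 and 1249 without the first and second pil5 red array.

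The pairs differed in their spread. In pair 1, 450 probe sets differed at least 2-fold, in pair 2, 452, and in pair 3, 1391. The SD of the differences over all probe sets was 0.34 in each of the first 2 pairs and 0.53 in the third. Taken over the probe sets, whose values are not independent of one another, the differences of pair 1 correlated with those of pair 2 at r = 0.80 and with those of pair 3 at r = 0.42, and pairs 2 and 3 correlated at r = 0.43.

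**Figure D1:**
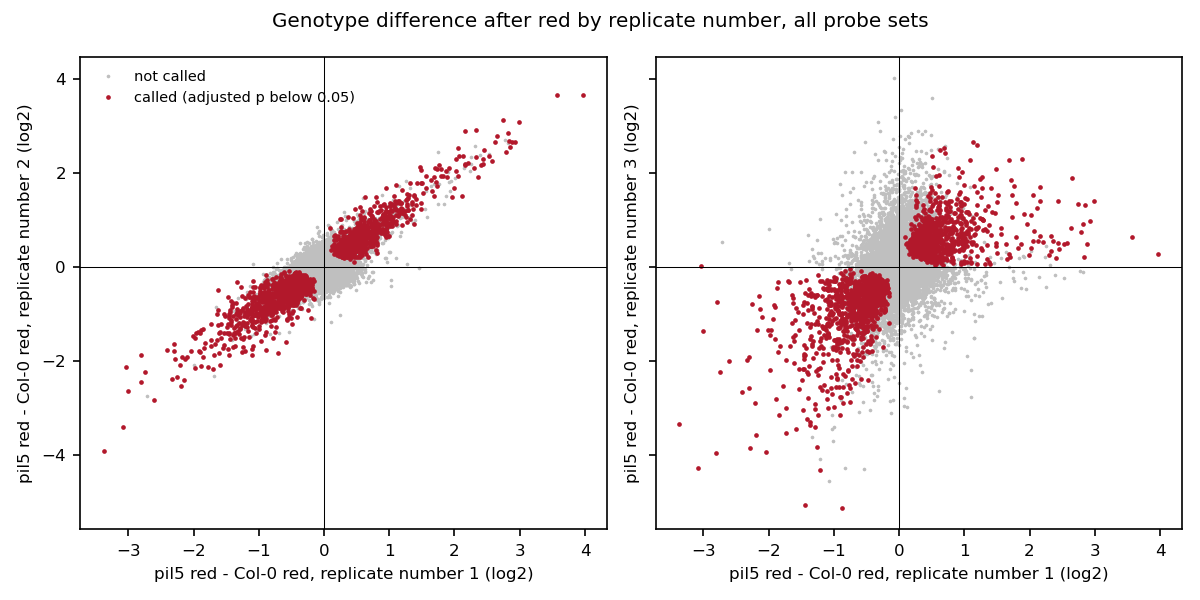
Log2 difference of pil5 red minus Col-0 red in replicate number 1 (x axis) against number 2 (left) and number 3 (right), 1 point per probe set, with the 1880 called probe sets in red and the others in grey. Points lie close to the diagonal for numbers 1 and 2 (r = 0.80) and spread along the y axis for number 3 (r = 0.42), where 1391 probe sets differed at least 2-fold.

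Genes of cell wall expansion were among those lower in the mutant. The gene lists here and below were chosen with earlier results of these data known, so their counts only describe and test no theme. Of 10 measured xyloglucan endotransglucosylase/hydrolases, which cut and rejoin xyloglucan chains between cellulose fibrils, 0 were called higher and 2 lower, where 3.57% of all probe sets were higher and 4.7% lower. XTH33 (AT1G10550) read 8.38, 7.83 and 6.93 on the Col-0 red arrays and 5.77, 4.99 and 4.93 on the pil5 red arrays. The groups did not overlap, and every pil5 red value was below the lowest Col-0 red value. XTH33 was 5.58-fold lower (log2 difference -2.48, SE 0.15, adjusted p = 1.9e-04), and it was also called with no replicate block (adjusted p = 0.042). XTH19 (AT4G30290) read 12.43, 12.22 and 11.38 on the Col-0 red arrays and 11.22, 10.44 and 7.07 on the pil5 red arrays, and the third pil5 array was far below the other 2. It was 5.42-fold lower (log2 difference -2.44, SE 0.53, adjusted p = 0.023), or by a log2 difference of -1.65 with the third pil5 red array left out. The XTH19 call was lost without the second or the third Col-0 red array (adjusted p up to 0.11). The median difference of the 10 was -0.12, against 0.00 over all probe sets.

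Of 15 measured expansins, proteins that loosen walls without cutting them, 4 were called lower and 0 higher, with a median of -0.13. The count was the same, 4 lower, without the third pil5 red array. EXPA4 (AT2G39700) read 7.72, 7.25 and 6.73 on the Col-0 red arrays and 6.33, 5.81 and 3.95 on the pil5 red arrays and was 3.66-fold lower (log2 difference -1.87, SE 0.24, adjusted p = 0.0025). EXPA15 (AT2G03090) was among the brightest of them at 10.86, 10.71 and 10.64 on the Col-0 red arrays and 10.19, 9.84 and 8.18 on the pil5 red arrays, and it was 2.52-fold lower (log2 difference -1.33, SE 0.32, adjusted p = 0.034). The pil5 values of both genes lay below the Col-0 values, with the third pil5 array lowest. EXPA8 (AT2G40610) was 2.32-fold lower (log2 difference -1.22, SE 0.24, adjusted p = 0.017) and EXLA2 (AT4G38400), an expansin-like gene, 1.29-fold lower (log2 difference -0.37, SE 0.09, adjusted p = 0.035). Leaving out 1 array ended the EXPA8 call in 2 cases (the second and the third Col-0 red arrays), the EXPA15 call in 6 and the EXLA2 call in 8, with adjusted p up to 0.078, 0.15 and 0.13. The EXPA15 difference was -0.82 without the third pil5 red array.

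All 4 called members among 7 probe sets of the cellulose synthase family belonged to the CSLC group, enzymes that make the glucan backbone of xyloglucan, and all 4 were lower. All 7 differences were below 0, with a median of -0.44 and the highest at -0.04, so the direction was not particular to the called members. CSLC04 (AT3G28180) read 9.48, 9.49 and 9.02 on the Col-0 red arrays and 8.70, 7.98 and 6.50 on the pil5 red arrays and was 3.03-fold lower (log2 difference -1.60, SE 0.34, adjusted p = 0.02). CSLC6 (AT3G07330) was 1.65-fold, CSLC5 (AT4G31590) 1.44-fold and CSLC12 (AT4G07960) 1.36-fold lower, with adjusted p of 0.012, 0.0089 and 0.029. Without the third pil5 red array 3 of the 4 were called, and CSLC12 was not (adjusted p = 0.056). The CSLC6 call was lost without the first or the third Col-0 red array (adjusted p up to 0.061). The CSLC04 call was lost without the second Col-0 red, second pil5 red or the third Col-0 red array (adjusted p up to 0.096). SKU5 (AT4G12420), a cell wall protein related to multicopper oxidases that is needed for directional root growth, read 10.16, 9.84 and 9.36 on the Col-0 red arrays and 8.28, 7.74 and 6.55 on the pil5 red arrays. It was 4.8-fold lower (log2 difference -2.26, SE 0.19, adjusted p = 6.0e-04), and the groups were well apart.

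Tubulins, the subunits of microtubules, had the lowest median of all lists with at least 5 probe sets, -0.62. Of 7 measured, 3 were called lower and 0 higher, also without the third pil5 red array. With all arrays, 4.7% of all probe sets were called lower and 3.57% higher. TUB5 (AT1G20010), a beta-tubulin, read 8.97, 8.24 and 7.39 on the Col-0 red arrays and 7.18, 6.12 and 4.85 on the pil5 red arrays. The array of number 3 was the lowest in both groups, and the third Col-0 value lay just above the first pil5 value, while the pairs differed by -1.78, -2.13 and -2.54. TUB5 was 4.44-fold lower (log2 difference -2.15, SE 0.14, adjusted p = 1.9e-04), kept its call whichever array was left out, and had an adjusted p of 0.29 with no replicate block. TUB1 (AT1G75780), another beta-tubulin, was 2.06-fold lower (log2 difference -1.04, SE 0.18, adjusted p = 0.0093), and the alpha-tubulin TUA6 (AT4G14960) was 1.86-fold lower (log2 difference -0.90, SE 0.20, adjusted p = 0.026). The TUA6 call was lost without any 1 of the 3 Col-0 red arrays (adjusted p up to 0.12). PRL (AT4G02060), the MCM7 subunit of the helicase that licenses DNA replication, read 7.33, 6.82 and 6.23 on the Col-0 red arrays and 5.51, 5.21 and 4.56 on the pil5 red arrays and was 3.25-fold lower (log2 difference -1.70, SE 0.15, adjusted p = 6.4e-04). Its 3 pairs differed by almost equal amounts, -1.82, -1.61 and -1.67.

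**Figure D2:**
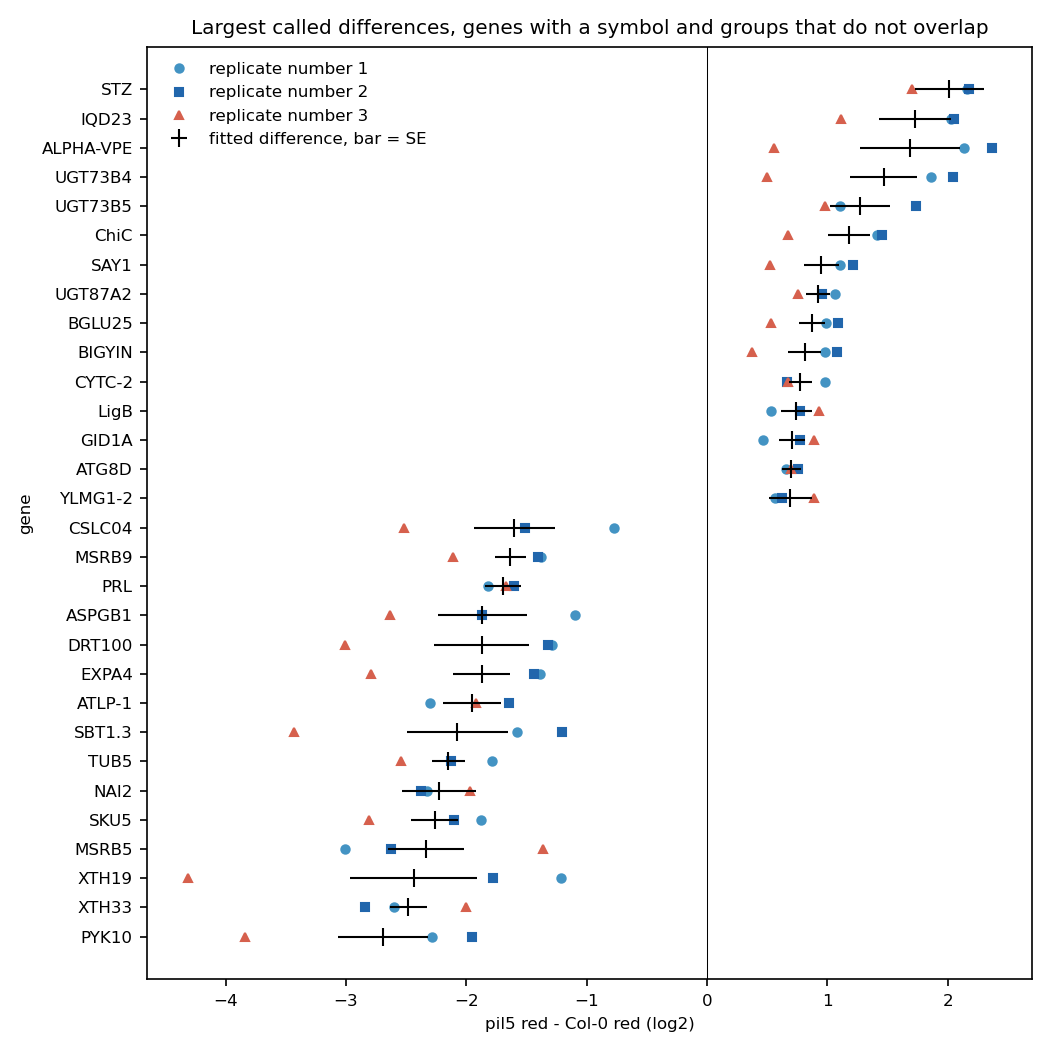
Log2 difference of pil5 red minus Col-0 red (x axis) for the 15 lowest and 15 highest called genes (y axis) that have a symbol and groups that do not overlap. Symbols are the 3 replicate numbers, the vertical mark is the fitted difference and the horizontal bar its SE (n = 3 pairs). The lower genes reach -2.69 (PYK10) and the higher genes 2.02 (STZ), and the third pair lies far from the other 2 for PYK10, XTH19, SBT1.3 and DRT100.

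PYK10 and NAI2, genes of the ER body, a compartment that stores beta-glucosidases used in defence in Brassicaceae, were both lower. PYK10 (AT3G09260), the ER body beta-glucosidase, read 10.55, 9.62 and 8.85 on the Col-0 red arrays and 8.27, 7.67 and 5.01 on the pil5 red arrays and was 6.46-fold lower (log2 difference -2.69, SE 0.37, adjusted p = 0.0037). NAI2 (AT3G15950), which is needed to form ER bodies, read 8.69, 7.94 and 6.86 on the Col-0 red arrays and 6.36, 5.56 and 4.89 on the pil5 red arrays and was 4.67-fold lower (log2 difference -2.22, SE 0.31, adjusted p = 0.0036). No pil5 red value reached the lowest Col-0 red value of either gene. Without the third pil5 red array the differences were -2.24 and -2.49, both called. Among 20 probe sets of genes named BGLU, the beta-glucosidase family, 1 was called higher and 2 lower, with a median of -0.03. Over all probe sets 3.57% were called higher and 4.7% lower. PYK10 is not among these 20, because its symbol does not start with BGLU. BGLU28 (AT2G44460) read 6.57, 5.88 and 5.51 on the Col-0 red arrays and 4.64, 4.49 and 4.41 on the pil5 red arrays and was 2.78-fold lower (log2 difference -1.47, SE 0.19, adjusted p = 0.0028), a call that held with no block (adjusted p = 0.029). BGLU40 (AT1G26560) was 1.66-fold lower (log2 difference -0.73, SE 0.15, adjusted p = 0.021), while BGLU25 (AT3G03640) was 1.83-fold higher (log2 difference 0.87, SE 0.11, adjusted p = 0.0024). The BGLU40 call was lost without the first Col-0 red, first pil5 red or second Col-0 red array (adjusted p up to 0.1).

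Methionine sulfoxide reductases of the B type, which repair oxidised methionine, moved in both directions. Of 5 measured MSR genes, 1 was called higher and 2 lower. MSRB9 (AT4G21850) read 6.96, 6.77 and 7.35 on the Col-0 red arrays and 5.58, 5.36 and 5.25 on the pil5 red arrays, with each group held within a narrow band. It was 3.1-fold lower (log2 difference -1.63, SE 0.13, adjusted p = 4.9e-04), and with no block its adjusted p was 0.007. MSRB5 (AT4G04830) was 5.04-fold lower (log2 difference -2.33, SE 0.32, adjusted p = 0.0033), and MSRB3 (AT4G04800) was 1.27-fold higher (log2 difference 0.34, SE 0.07, adjusted p = 0.02). The MSRB3 call was lost without any 1 of 4 red arrays (the first and the third Col-0 red and the first and second pil5 red arrays, adjusted p up to 0.089). Among 13 glutathione transferases, enzymes that conjugate toxic or oxidised compounds, 1 was called in each direction. Over all probe sets 3.57% were called higher and 4.7% lower. GSTU27 (AT3G43800) read 7.83, 7.56 and 7.45 on the Col-0 red arrays and 6.23, 6.18 and 6.33 on the pil5 red arrays and was 2.58-fold lower (log2 difference -1.36, SE 0.13, adjusted p = 7.4e-04), also with no block (adjusted p = 0.0096). GSTU22 (AT1G78340) read 5.32, 5.67 and 7.70 on the Col-0 red arrays and 7.66, 8.58 and 8.04 on the pil5 red arrays and was 3.63-fold higher (log2 difference 1.86, SE 0.45, adjusted p = 0.037). Its groups overlapped, since the third Col-0 red value exceeded the lowest pil5 red value. The GSTU22 difference rose to 2.64 without the third pil5 red array, when 3 glutathione transferases in all were called higher, but its call was lost in 8 of 12 fits that left out 1 array, all 3 Col-0 red arrays among them.

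The protease gene SBT1.3 and the asparaginase gene ASPGB1 were among the 15 lowest genes. SBT1.3 (AT5G51750), a subtilisin-type protease, read 9.32, 8.32 and 8.58 on the Col-0 red arrays and 7.74, 7.11 and 5.14 on the pil5 red arrays and was 4.21-fold lower (log2 difference -2.07, SE 0.42, adjusted p = 0.017). ASPGB1 (AT3G16150), an asparaginase that releases ammonium from asparagine, read 11.30, 11.20 and 10.35 on the Col-0 red arrays and 10.20, 9.33 and 7.72 on the pil5 red arrays and was 3.64-fold lower (log2 difference -1.87, SE 0.37, adjusted p = 0.017). Both had their lowest value on the third pil5 red array, and without it the differences were -1.47 and -1.37. The SBT1.3 call was lost without any 1 of the Col-0 red arrays and the ASPGB1 call without the second or the third (adjusted p up to 0.085 and 0.091). Of 29 serine carboxypeptidase-like genes, 6 were called lower and 0 higher, against 4.7% and 3.57% of all probe sets. The median was -0.12 with all arrays, and both counts were the same without the third pil5 red array. The largest called difference was that of scpl25 (AT3G02110), 2.41-fold lower (log2 difference -1.27, SE 0.33, adjusted p = 0.045), with scpl29 (AT4G30810) at 2.14-fold, scpl42 (AT5G42240) at 1.78-fold and SCPL45 (AT1G28110) at 1.66-fold lower. Of the 4, SCPL45 alone kept its call whichever array was left out (adjusted p up to 0.029), while the others were lost without any 1 of the Col-0 red arrays, among others (adjusted p up to 0.19, 0.11 and 0.084). Of 8 aldehyde dehydrogenases, 3 were called lower and 0 higher. ALDH11A3 (AT2G24270), a glyceraldehyde-3-phosphate dehydrogenase that makes NADPH, was 2.62-fold lower (log2 difference -1.39, SE 0.18, adjusted p = 0.0031) with overlapping groups, ALDH3F1 (AT4G36250) was 1.92-fold lower (log2 difference -0.94, SE 0.09, adjusted p = 8.7e-04), and ALDH6B2 (AT2G14170) was 1.25-fold lower (log2 difference -0.32, SE 0.08, adjusted p = 0.045). ALDH3F1 was also called with no block (adjusted p = 0.041), and the ALDH6B2 call was lost in 10 of 12 fits that left out 1 array.

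Of the other low genes, ATLP-1 (AT1G18250), a thaumatin-like protein, read 7.02, 6.20 and 6.19 on the Col-0 red arrays and 4.72, 4.56 and 4.27 on the pil5 red arrays. It was 3.88-fold lower (log2 difference -1.95, SE 0.24, adjusted p = 0.0021), with the groups clearly apart, and was called with no block too (adjusted p = 0.049). DRT100 (AT3G12610), a leucine-rich repeat protein, was 3.66-fold lower (log2 difference -1.87, SE 0.40, adjusted p = 0.021). NDB3 (AT4G21490), an alternative NAD(P)H dehydrogenase of mitochondria, was 2.89-fold lower (log2 difference -1.53, SE 0.41, adjusted p = 0.0499). The DRT100 call was lost without any 1 of the Col-0 red arrays (adjusted p up to 0.1), and the NDB3 call was lost in 10 of 12 fits that left out 1 array, 0.066 being the adjusted p without the third pil5 red array.

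**Figure D3:**
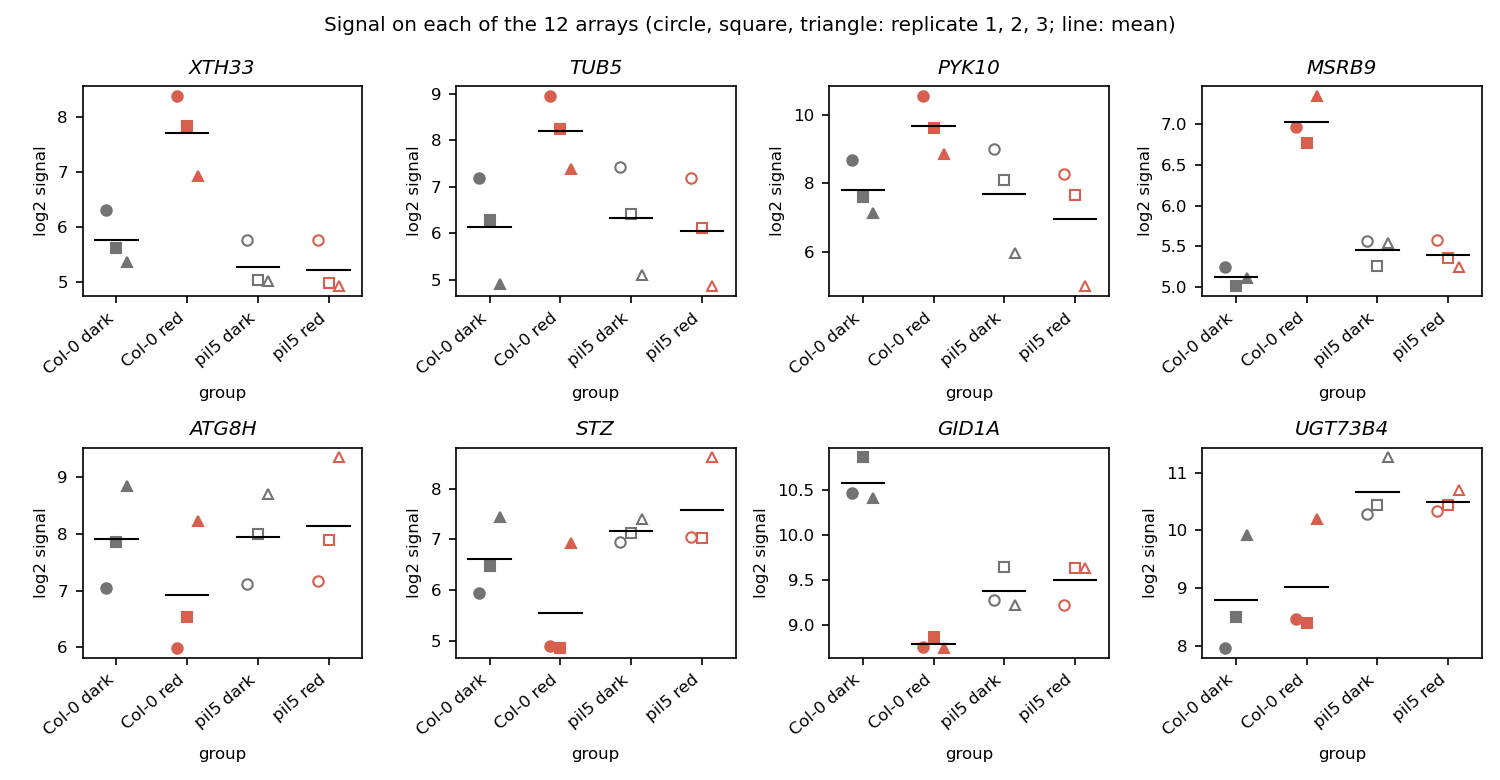
Log2 signal (y axis) of 8 genes on all 12 arrays by group (x axis), with filled symbols for Col-0, open symbols for pil5, grey for dark and red for the red pulse, and a line at the mean of 3 arrays. For XTH33, TUB5, PYK10 and MSRB9 the Col-0 red group is the highest of the 4 groups, and for ATG8H, STZ and GID1A it is the lowest; UGT73B4 is high in both pil5 groups.

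Genes of autophagy were among those higher in the mutant. Autophagy carries cytoplasm and organelles to the vacuole, and the ATG8 proteins coat the membrane that encloses the cargo. Of 10 measured autophagy genes, 6 were called higher and 0 lower, against 3.57% and 4.7% of all probe sets. The median of the 10 was 0.50. The medians of the 3 pairs were 0.47, 0.52 and 0.61, and without the third pil5 red array 5 were called higher and the median was 0.49. ATG8H (AT3G06420) read 5.99, 6.54 and 8.22 on the Col-0 red arrays and 7.17, 7.89 and 9.35 on the pil5 red arrays, so that its groups overlapped while every pair rose, by 1.18, 1.36 and 1.13. ATG8H was 2.34-fold higher (log2 difference 1.22, SE 0.16, adjusted p = 0.0028). ATG8D (AT2G05630) read 8.72, 8.70 and 9.17 on the Col-0 red arrays and 9.38, 9.45 and 9.86 on the pil5 red arrays without overlap and was 1.63-fold higher (log2 difference 0.70, SE 0.08, adjusted p = 0.0013). ATG8E (AT2G45170) was 1.89-fold and ATG8B (AT4G04620) 1.56-fold higher, with adjusted p of 0.0082 and 0.0011. The calls of these 4 genes held whichever array was left out, but 0 of the 10 autophagy genes were called with no replicate block.

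UDP-glycosyltransferases attach sugars to hormones, phenolics and foreign compounds. Of 47 probe sets of genes named UGT, a family chosen after its values were seen, 6 were called higher and 2 lower, with a median of 0.12. Over all probe sets 3.57% were called higher and 4.7% lower. UGT73B4 (AT2G15490) read 8.47, 8.40 and 10.20 on the Col-0 red arrays and 10.33, 10.44 and 10.70 on the pil5 red arrays and was 2.77-fold higher (log2 difference 1.47, SE 0.28, adjusted p = 0.013), and its neighbour in name UGT73B5 (AT2G15480) read 4.86, 4.64 and 5.43 on the Col-0 red arrays and 5.96, 6.38 and 6.41 on the pil5 red arrays and was 2.42-fold higher (log2 difference 1.28, SE 0.25, adjusted p = 0.015). In both genes the third Col-0 red array was the highest of its group but stayed below all pil5 red arrays. Without the third pil5 red array the differences were 1.85 and 1.54. Both calls were lost in 4 of 12 fits that left out 1 array (adjusted p up to 0.078 and 0.086, each with the second Col-0 red array among them). UGT87A2 (AT2G30140) was 1.9-fold higher (log2 difference 0.92, SE 0.10, adjusted p = 0.0011) and kept its call under each left-out array. UGT84A3 (AT4G15490) was 1.79-fold higher (log2 difference 0.84, SE 0.19, adjusted p = 0.03), and UGT71C3 (AT1G07260) was 1.8-fold lower (log2 difference -0.85, SE 0.21, adjusted p = 0.037). These last 2 calls were lost in 5 and 8 of 12 such fits.

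STZ (AT1G27730), a zinc-finger repressor induced by salt and cold, showed the largest rise among genes that have a symbol and groups that do not overlap. It read 4.89, 4.86 and 6.92 on the Col-0 red arrays and 7.05, 7.04 and 8.62 on the pil5 red arrays, and the third array was the highest in both groups. STZ was 4.04-fold higher (log2 difference 2.02, SE 0.28, adjusted p = 0.0041) and 1.89 without the third pil5 red array on the log2 scale. IQD23 (AT5G62070), of a family that binds calmodulin, read 5.38, 5.23 and 6.33 on the Col-0 red arrays and 7.41, 7.28 and 7.44 on the pil5 red arrays and was 3.32-fold higher (log2 difference 1.73, SE 0.30, adjusted p = 0.0092). ALPHA-VPE (AT2G25940), a vacuolar processing enzyme, that is a protease that matures vacuolar proteins, was 3.22-fold higher (log2 difference 1.69, SE 0.41, adjusted p = 0.037), and ChiC (AT4G19810), a chitinase, was 2.27-fold higher (log2 difference 1.18, SE 0.17, adjusted p = 0.0047). The IQD23 call was lost without the first or second Col-0 red array (adjusted p up to 0.058), and the ALPHA-VPE call was lost in 8 of 12 fits that left out 1 array. Smaller rises were those of SAY1 (AT4G11740) at 1.93-fold, BIGYIN (AT3G57090), a fission factor of mitochondria and peroxisomes, at 1.76-fold, and CYTC-2 (AT4G10040), a cytochrome c, at 1.71-fold, with adjusted p of 0.0058, 0.0095 and 0.0021. LigB (AT4G15093), named for a ring-opening dioxygenase, was 1.67-fold higher (log2 difference 0.74, SE 0.13, adjusted p = 0.0087) and YLMG1-2 (AT4G27990), a plastid membrane protein, 1.62-fold higher (log2 difference 0.69, SE 0.18, adjusted p = 0.044). Without the second Col-0 red array the adjusted p was above 0.05 for BIGYIN and LigB (up to 0.058 and 0.054), and the YLMG1-2 call was lost in 10 of 12 such fits. Among 6 histone genes 1 was called higher, HTB2 (AT5G22880), an H2B histone, 1.53-fold (log2 difference 0.62, SE 0.13, adjusted p = 0.021), a call lost in 5 of 12 such fits.

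Of 10 listed GA perception genes 5 were measured, of which 1 was called higher and 1 lower. GID1A (AT3G05120), a GA receptor, read 8.76, 8.87 and 8.75 on the Col-0 red arrays and 9.23, 9.64 and 9.63 on the pil5 red arrays, with all pil5 red values above all Col-0 red values. GID1A was 1.63-fold higher (log2 difference 0.71, SE 0.11, adjusted p = 0.0065), and its call held under each left-out array (adjusted p up to 0.044). The receptor gene GID1B (AT3G63010) read 4.75, 4.52 and 5.01 on the Col-0 red arrays and 4.59, 4.58 and 5.60 on the pil5 red arrays. The remaining one, GID1C (AT5G27320), read 5.75, 6.11 and 5.69 on the Col-0 red arrays and 5.84, 6.0 and 6.10 on the pil5 red arrays. Both overlapped between genotypes, with differences of 0.17 (adjusted p = 0.54) and 0.13 (adjusted p = 0.51). SLY1 (AT4G24210), the F-box protein that marks DELLA repressors for degradation, differed by 0.15 (SE 0.07, adjusted p = 0.24). SLY2 (AT5G48170), its close relative, was 1.46-fold lower (log2 difference -0.55, SE 0.13, adjusted p = 0.036), a call lost in 9 of 12 fits that left out 1 array and at an adjusted p of 0.072 without the third pil5 red array. None of the 20 listed GA metabolism genes and 13 ABA metabolism genes had a probe set tied to them in the supplied annotation.

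Of 28 listed ABA signalling genes 2 were measured, and 0 were called. XERICO (AT2G04240), a RING protein that raises ABA levels, read 8.35, 8.55 and 8.65 on the Col-0 red arrays and 8.60, 9.28 and 10.62 on the pil5 red arrays, and its difference was 0.99 (SE 0.32, adjusted p = 0.09). The third pil5 red array was its highest, and without that array the difference was 0.45 (adjusted p = 0.032). EEL (AT2G41070), a bZIP factor of late seed development, read 6.78, 6.94 and 6.68 on the Col-0 red arrays and 6.03, 6.59 and 8.29 on the pil5 red arrays. It was highest on the third pil5 red array and lowest on the first, so that the difference was 0.17 with all arrays and -0.71 without the third (adjusted p = 0.89 and 0.059). Among 4 measured regulators of light response and germination, 1 was called higher and 2 lower. ALC (AT5G67110), a bHLH factor known from fruit opening, read 7.10, 6.83 and 6.79 on the Col-0 red arrays and 5.95, 5.85 and 5.48 on the pil5 red arrays and was 2.21-fold lower (log2 difference -1.15, SE 0.12, adjusted p = 0.0011), also with no block (adjusted p = 0.029). SPT (AT4G36930), a bHLH repressor of germination, was 1.77-fold lower (log2 difference -0.83, SE 0.16, adjusted p = 0.014), with overlapping groups and a call lost without the first or second Col-0 red array (adjusted p up to 0.065). HYH (AT3G17609), a bZIP homologue of the light response factor HY5, was 1.73-fold higher (log2 difference 0.79, SE 0.20, adjusted p = 0.039), also with overlap, a call lost in 7 of 12 fits that left out 1 array. FHL (AT5G02200), which helps phytochrome A enter the nucleus, read 5.21, 5.04 and 5.06 on the Col-0 red arrays and 5.14, 5.25 and 4.94 on the pil5 red arrays, with no difference resolved (0.00, SE 0.16, adjusted p = 0.99).

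Late embryogenesis abundant (LEA) and dehydrin genes, which protect dry seeds, were mostly above 0 without passing the test. Of 31 measured, 25 were above 0, with a median of 0.37. Of these 31, 2 were called higher and 0 lower, against 3.57% and 4.7% of all probe sets. The pair medians were 0.08, 0.19 and 0.74, and without the third pil5 red array 1 was called higher and 3 lower, with a median of 0.08. That array carried the raised mitochondrial median of 9.87, and whether the values are linked was not tested. AT3G53040, a LEA family member, read 9.69, 10.12 and 10.82 on the Col-0 red arrays and 11.48, 12.05 and 12.18 on the pil5 red arrays and was 3.24-fold higher (log2 difference 1.69, SE 0.24, adjusted p = 0.0038), with each pil5 value above each Col-0 value. AT2G23110 was 1.49-fold higher (log2 difference 0.58, SE 0.15, adjusted p = 0.049), a call lost in 10 of 12 fits that left out 1 array (adjusted p up to 0.19, and 0.11 without the third pil5 red array). Of 9 heat shock proteins, 2 were called higher and 1 lower, and the pair medians of 0.06, 0.40 and 1.84 rested on the third pair. Without the third pil5 red array 4 were called higher and 2 lower, and the median of the list fell from 0.59 to 0.19. AT5G51440, a small heat shock protein, read 8.23, 8.42 and 10.74 on the Col-0 red arrays and 9.73, 10.21 and 12.12 on the pil5 red arrays, and pairs rose by 1.5, 1.80 and 1.38 although the groups overlapped. It was 2.94-fold higher (log2 difference 1.56, SE 0.15, adjusted p = 7.4e-04). ATHSP22.0 (AT4G10250) was 2.62-fold higher (log2 difference 1.39, SE 0.36, adjusted p = 0.044) and AT4G21870 was 1.61-fold lower (log2 difference -0.68, SE 0.12, adjusted p = 0.0087). Both calls were lost without the first or the second Col-0 red array, among others for ATHSP22.0 (adjusted p up to 0.18 and 0.054). Seed storage and oil body genes (3), storage lipid mobilisation genes (2), leaf photosynthesis markers (3), Aux/IAA genes (7) and MADS-box genes (42 probe sets) had 0 calls in either direction in the blocked limma fit and 0 with no block. Their numbers called without the third pil5 red array were 0 as well, apart from 1 lower leaf marker and 1 lower MADS-box probe set. Over all probe sets 5269 had an unadjusted p below 0.05.

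**Figure D4:**
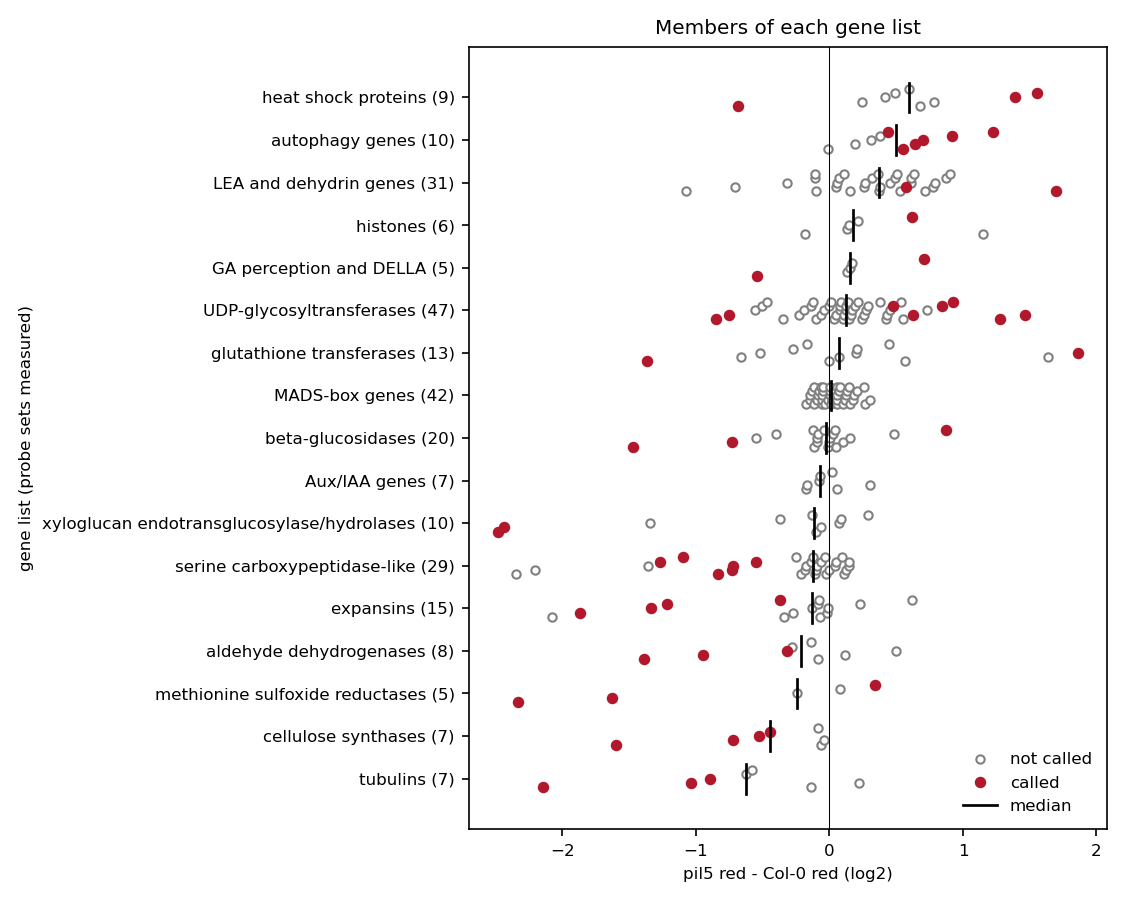
Log2 difference of pil5 red minus Col-0 red (x axis) for each probe set of the lists with at least 5 probe sets (y axis, number measured in brackets), red where called, open where not, with a line at the list's median over 3 replicates per group. Tubulins have the lowest median (-0.62), and autophagy genes hold 6 called members, all higher; called UDP-glycosyltransferases lie on both sides of 0.

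The 44 probe sets called with no replicate block include 20 that are tied to 1 gene, 4 higher and 16 lower. These calls set the pairing aside but take the spread from all 12 arrays, the dark arrays among them. With no block, the 6 red arrays alone called 0. The lowest was AT5G45670, at 9.56, 8.57 and 8.60 on the Col-0 red arrays and 6.47, 5.16 and 4.32 on the pil5 red arrays, which was 12-fold lower (log2 difference -3.59, SE 0.26, adjusted p = 4.1e-04), with an adjusted p of 0.042 with no block. No pil5 red array came within 2 log2 units of the lowest Col-0 red array. The highest was AT5G42720, at 4.42, 4.58 and 5.10 on the Col-0 red arrays and 6.18, 6.75 and 6.83 on the pil5 red arrays, which was 3.69-fold higher (log2 difference 1.88, SE 0.15, adjusted p = 4.3e-04). Its SD was 0.36 within each red group, and its adjusted p with no block was 0.012. The other 3 that rose were AT5G17760 at 3.17-fold, AT1G10050 at 3.09-fold and AT3G17770 at 1.54-fold. AT4G29020 was the brightest of the lower ones, at 12.12, 11.72 and 12.29 on the Col-0 red arrays and 10.92, 10.47 and 10.62 on the pil5 red arrays, and was 2.6-fold lower (log2 difference -1.38, SE 0.12, adjusted p = 6.0e-04). Falls of 2.74-fold for AT2G40435, 2.66-fold for AT4G33960, 2.53-fold for ZW9 (AT1G58270) and 1.98-fold for AT1G67750 were also in this set. AT1G69526, AT3G45320 and AT5G42070 were 1.83-fold, 1.79-fold and 1.73-fold lower, and XTH33, MSRB9, GSTU27, BGLU28, ATLP-1, ALC and ALDH3F1 complete the 16 with AT5G45670. All 20 were called again when the third pil5 red array was left out in the blocked fit. With no block and that array left out, 28 probe sets were called in all, 11 higher and 17 lower. Only 11 of the 85 named genes kept their result in that fit, so not all 20 calls held there. The remaining 59 of the 79 called genes named here were not called with no block.

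The genotype difference after red was set beside the genotype difference in the dark, which uses the other 6 arrays. Both differences come from 1 fit, and so share the estimate of each probe set's spread. In the dark 5406 probe sets were called (23.8%; 2637 or 11.6% higher and 2769 or 12.2% lower in pil5). That number was 2750 with no replicate block, 2935 and 3037 without the first and second Col-0 dark array, and 3424 without the third pil5 dark array. Of the probe sets called after red, 585 were called in the same direction in the dark, 331 higher and 254 lower, which is 31.1% of the calls after red and 10.8% of those in the dark. Of those higher after red 40.8% were also higher in the dark, and of those lower after red 23.8% were also lower. A further 205 were called in opposite directions, 10.9% of the calls after red and 3.79% of those in the dark, and 1090 were not called in the dark. In the shared 585 the median size was 0.62 after red and 0.60 in the dark. Without the third pil5 red array the shared count was 1121. It was 229, 190 and 330 without the first, second and the third Col-0 red array, 289 and 327 without the first and second pil5 red array, 323 and 327 without the first and second Col-0 dark array, and 380 and 307 without the first and second pil5 dark array.

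Several of the higher genes were also called higher in the dark. GSTU22 was higher by 1.86 after red and by 2.55 in the dark, UGT73B4 by 1.47 and 1.87, AT5G51440 by 1.56 and 1.71, ALPHA-VPE by 1.69 and 1.55, IQD23 by 1.73 and 1.35, and AT5G42720 by 1.88 and 1.49. UGT73B5, SAY1, BIGYIN and CYTC-2 were likewise called in both lights, with differences of 1.28, 0.95, 0.81 and 0.77 after red and 1.26, 0.97, 0.81 and 0.77 in the dark. The interaction, which tests the difference between the 2 lights, was not called for any of the 10, with adjusted p from 0.24 to 0.99, a result that does not show the differences to be equal. Lower genes were also called in both lights, among them NAI2 at -2.22 after red and -1.57 in the dark (interaction adjusted p = 0.36). AT4G33960 stood at -1.41 and -0.85, ALDH11A3 at -1.39 and -0.65, and scpl42 at -0.83 and -0.53. CSLC5 stood at -0.53 and -0.65 and ALDH6B2 at -0.32 and -0.65. The interaction was not called for these genes either (adjusted p from 0.069 to 0.57). PRL, ZW9 and AT5G42070 were called lower in both lights too, with the interaction called.

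Several of the lowest genes were not called in the dark. The dark differences of PYK10, XTH19, TUB5, SBT1.3 and EXPA4 were -0.11, 0.15, 0.19, 0.07 and -0.08, with adjusted p from 0.4 to 0.94. For TUB5 the group means were 6.13 in Col-0 dark, 8.20 in Col-0 red, 6.32 in pil5 dark and 6.05 in pil5 red, so that 3 groups lay near each other and Col-0 red stood above them. XTH33 had means of 5.77 in Col-0 dark, 7.71 in Col-0 red, 5.28 in pil5 dark and 5.23 in pil5 red, again with Col-0 red at the top. Unlike the other 5, XTH33 was also called lower in pil5 in the dark (-0.49, adjusted p = 0.042). The interaction was called for each of these 6 genes, and over all probe sets for 3973 (17.5%). The difference after red is itself a part of the interaction, so probe sets picked by that difference tend towards a call. Interaction calls among these 6 genes, or among the probe sets called after red, are therefore no separate support. The interaction was called for 810 of the 1880 probe sets that differed after red. This count was 25 with no replicate block, 284, 249 and 383 without each Col-0 red array in turn, 394, 394 and 1303 without each Col-0 dark array in turn, and 466 and 427 without the first and second pil5 dark array. The interaction count was 1443 with no replicate block, 1702 and 1672 without the first and second Col-0 dark array, 2076, 2229 and 2283 without each Col-0 red array in turn, and 2583, 2338 and 2398 without each pil5 dark array in turn. Because the light comparisons of the 2 genotypes share these arrays, the group means are given side by side and no overlap between those comparisons is drawn.

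A smaller set crossed over between the lights. Of the 205 with opposite directions, 87 were higher after red and lower in the dark and 118 were lower after red and higher in the dark. The count of 205 was 2 with no replicate block. It was 55, 46 and 77 without each Col-0 red array in turn, 65, 71 and 463 without each Col-0 dark array in turn, and 88 and 90 without the first and second pil5 dark array. GID1A was higher in pil5 by 0.71 after red and lower in the dark (-1.20), with means of 10.58 in Col-0 dark, 8.79 in Col-0 red, 9.38 in pil5 dark and 9.50 in pil5 red. Both pil5 groups thus lay between the wild-type groups, and the interaction was 1.91 (SE 0.16, adjusted p = 6.3e-04). ASPGB1 was -1.87 after red and 1.42 in the dark, and EXPA8 -1.22 and 1.3, again with both pil5 means between the Col-0 means. The means of EXPA8 were 10.09 in Col-0 dark, 12.27 in Col-0 red, 11.39 in pil5 dark and 11.05 in pil5 red. YLMG1-2 and HTB2 were higher after red (0.69 and 0.62) and lower in the dark (-0.73 and -0.55), and scpl25 was lower after red (-1.27) and higher in the dark (1.18). FHL had the largest interaction of the genes named here, 4.18 (SE 0.23, adjusted p = 9.1e-05), and it stood at 10.00 in Col-0 dark and between 5.10 and 5.82 in the other 3 groups. Of 31 LEA and dehydrin genes 14 were called lower and 0 higher in the dark, against 0 lower and 2 higher after red, with list medians of -0.69 and 0.37. After red 29 of the 31 were not called. Without the third pil5 red array the median after red was 0.08, with 1 called higher and 3 lower, so the list as a whole is not shown to cross over. Over all probe sets 12.2% were called lower and 11.6% higher in the dark, and 4.7% and 3.57% after red. For autophagy genes the dark counts were 1 higher and 3 lower, with a median of 0.04.

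**Figure D5:**
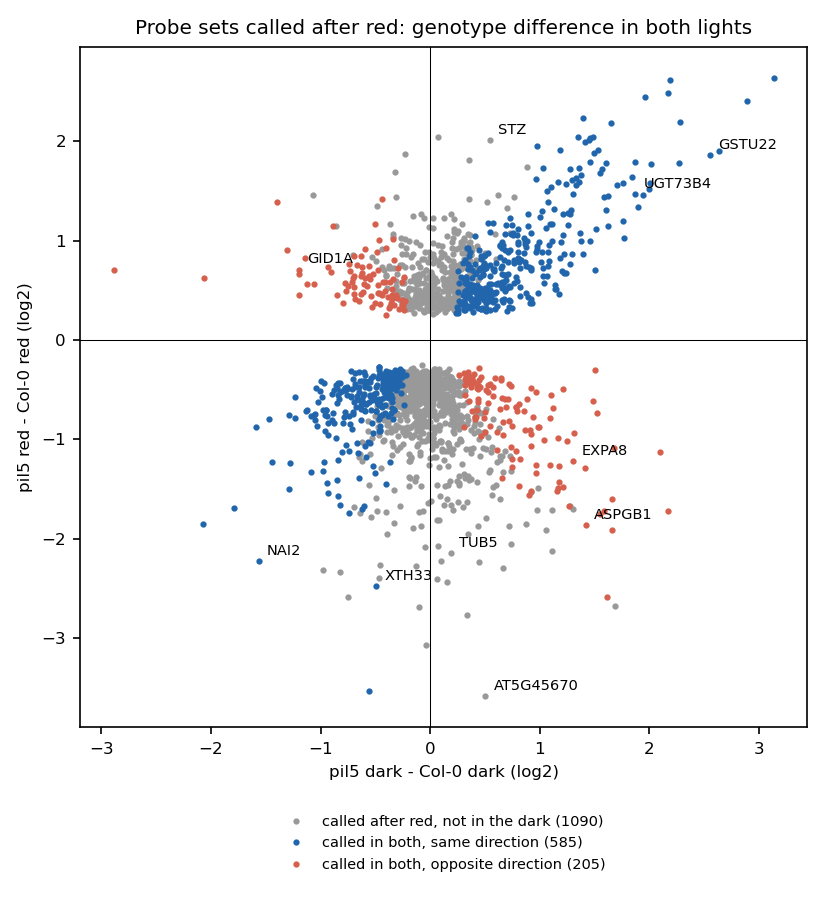
Genotype difference in the dark (x axis, pil5 dark minus Col-0 dark, log2) against that after red (y axis, pil5 red minus Col-0 red, log2) for the 1880 probe sets called after red, each the difference of 3 against 3 arrays. Blue points (585) were called in the same direction in both lights, orange points (205) in opposite directions, and grey points (1090) were not called in the dark.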

How the data were processed

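RNA from imbibed Arabidopsis seeds had been hybridised as biotinylated cRNA to 1 Affymetrix array per sample, 12 in all, per the labels' protocols. The deposited table holds log2 values of 22810 probe sets, normalized by the authors. MAS5 5.0 and RMA are the tools in the submitters' processing notes, with the role of each not stated. The values were used without further scaling, after 64 control probe sets were set aside. The model, fitted to all 12 arrays in limma 3.58.1 under R 4.3.3, had a mean for each group and replicate number as an additive block. Tests were two-sided eBayes tests with no trend, and p-values were adjusted by Benjamini-Hochberg over 22746 probe sets at a threshold of 0.05. The block was used because the comparison is defined by pairs, and same-numbered arrays of different groups deviated together (r 0.175 to 0.709 in 18 pairs, against -0.677 to 0.407 in 36 pairs of other numbers). The labels call the samples biological replicates and do not say what a number shares.

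Genes were named from the supplied probe set annotation, where 13436 of the 13513 probe sets with 1 gene matched RefSeq (assembly TAIR10.1). Named were PIL5, the 15 highest and 15 lowest called genes with a symbol and groups that did not overlap, every probe set of 1 gene also called with no block, up to 4 called members of each list, all measured GA, ABA and light or germination regulators, and the 5 highest and 5 lowest interactions among genes called in both tests. Members, the 16 lists by locus and 15 families by symbol were chosen with earlier results of these data known. The lists of heat shock factors, GA metabolism, GASA genes, ABA metabolism and mannanases had 0 measured members, and no symbol matched the patterns for arabinogalactan proteins, aquaporins, cyclins, replication licensing genes (PRL, an MCM7 gene, is not matched by that pattern) and ethylene response factors. Alternatives were other blocks, samples, normalizations, filters and variance models, and leaving out each array in turn. One alternative, no block with the third pil5 red array left out, was added after the data were seen. The number of arrays limits the precision. Figures were drawn with matplotlib 3.10.9.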

Additional observations from a re-analysis of the deposited data

Results flagged for a closer look

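The genotype difference itself differed between the 2 lights at 3973 of 22746 probe sets (17.5%), by the limma interaction term, that is pil5 minus Col-0 after red less the same in the dark. A negative interaction means that pil5 stood lower against Col-0 after red than in the dark. The values of the genes named above for which it was called follow. For genes named by their difference after red, that difference is a part of the interaction, so the call is no separate support.

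Below 0 it was called for the following genes, in log2 units. Values under -2 were those of AT5G45670 (-4.09), ASPGB1 (-3.28), XTH19 (-2.59), PYK10 (-2.59), EXPA8 (-2.52), NDB3 (-2.46), scpl25 (-2.45), TUB5 (-2.34), DRT100 (-2.31), CSLC04 (-2.24) and SBT1.3 (-2.14). Between -2 and -1.3 lay XTH33 (-1.99), MSRB9 (-1.97), EXPA15 (-1.87), SKU5 (-1.80), EXPA4 (-1.79), AT2G40435 (-1.72), GSTU27 (-1.71), BGLU28 (-1.61), ATLP-1 (-1.56), MSRB5 (-1.51) and scpl29 (-1.42). Weaker negative interactions were those of SPT (-1.24), AT4G29020 (-1.18), AT3G45320 (-1.18), TUB1 (-1.08), PRL (-1.08), AT1G67750 (-0.97), ALC (-0.95), BGLU40 (-0.93), AT1G69526 (-0.86), AT4G21870 (-0.85), ZW9 (-0.84), ALDH3F1 (-0.74), SLY2 (-0.67) and AT5G42070 (-0.45). Of these genes, ASPGB1, EXPA8 and scpl25 were also called higher in pil5 in the dark.

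Above 0 it was called for a further set. The highest were FHL (4.18), XERICO (2.89), EEL (2.54), AT3G53040 (2.01) and GID1A (1.91). The next were STZ (1.47), YLMG1-2 (1.43), UGT84A3 (1.37), AT2G23110 (1.36), ATG8H (1.20), GID1C (1.20), HTB2 (1.17) and LigB (1.12). The lowest were ATG8D (0.74), UGT87A2 (0.66), BGLU25 (0.58), SLY1 (0.40) and ATG8B (0.36). FHL, EEL, XERICO, GID1C and SLY1 were called in the dark, lower in pil5, and were not called after red.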

How the results depend on the processing

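The direction of nearly all named differences held, while the number of calls depended on the block and on single arrays. Counts are given as called, higher and lower after red, shared in direction with the dark, and interaction, where 1880, 811, 1069, 585 and 3973 were reported. With no replicate block they were 44, 9, 35, 10 and 1443, and with no replicate block on the compared arrays alone 0, 0, 0 and 0 with no interaction. With the replicate block on the compared arrays alone they were 316, 147, 169 and 107. A random block gave 786, 319, 467 and 164, array weights 3899, 1848, 2051, 1632 and 6493, 1 probe set per gene 953, 425, 528, 297 and 2269 (fewer tested), and a 2-fold minimum 360, 136, 224, 73 and 1426. Without all arrays of number 3 they were 4084, 1874, 2210, 1720 and 6211. No block without the third pil5 red array, an alternative added after seeing the data, gave 28, 11, 17, 13 and 1335. Leaving out 1 array gave ranges of 559 to 2447, 218 to 1035, 341 to 1428, 190 to 1121 and 1672 to 5175. Quantile normalization, median centring, filters on the dimmest 25% or 50%, and a trended robust eBayes stayed within 1.5 times of the reported counts, but median centring turned the balance after red to 986 higher and 904 lower.

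Reversals among named genes were confined, under these alternatives, to 5 genes. ALDH6B2 was 0.0506 with no block and the third pil5 red array left out. FHL was -0.00523, -0.06 and -0.0676 without the first Col-0 red, second Col-0 red and second pil5 red array, in a range of -0.0676 to 0.0767 over the left-out arrays. GID1C was -0.0128 without number 3. GID1B was -0.00113 with array weights, -0.00925 without the third pil5 red array (range to 0.277), -0.0495 without number 3, and -0.17 with no block and that array left out. EEL was -0.44, -0.705 (range to 0.763), -0.55 and -0.49 in the same 4 settings. The cause was not tested.

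With 3 arrays per group and a block, 6 residual degrees of freedom set the spread of each probe set, so calls near the threshold are weak. Of 79 named and called genes, 44 kept the call under every left-out array, 20 with no block, and 32 in the blocked fit of the 6 red arrays. Leaving out the first, second and the third Col-0 red array ended 27, 33 and 28 of the calls, and the same for the pil5 red arrays ended 14, 17 and 6. Leaving out the Col-0 dark arrays ended 11, 12 and 0, and the pil5 dark arrays 11, 13 and 5.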
